A study of Mus musculus with 8 samples.

Results

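Cadherins are cell-surface proteins with repeated extracellular domains that bind calcium and hold neighbouring cells together. Classical cadherins are linked to the actin cytoskeleton through catenins, and β cells adhere to each other through E-cadherin and N-cadherin. Protocadherins have other cytoplasmic tails. Most of the clustered protocadherins are made by joining a variable first exon, each with its own promoter, to constant exons shared by the α or the γ family, and cells choose among these promoters. Here the numbered cadherin genes without Cdh1, together with the protocadherin genes, were examined in MIN6 cells that had received Klf4, a zinc-finger transcription factor. Members were taken by symbol: Cdh followed by digits, or Pcdh followed by digits and lower-case letters. This gave 92 of the 55536 genes of the count table: 22 cadherins, 12 non-clustered protocadherins and 58 clustered protocadherins. The working name classical cadherins does not cover all of them. Of the 22 cadherins, 4 belong to type I, 13 to type II, and 5 (Cdh13, Cdh16, Cdh17, Cdh23 and Cdh26) to neither.

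MIN6 is a mouse β-cell line, and all 8 libraries carry the genotype label WT. The extraction text names islets, while every other label names the cell line. All cultures were treated with Lipofectamine 3000 for 48 h. The 4 control cultures received the pcDNA 3 empty vector and the 4 others received pGloMyc-Klf4, so that plasmid backbone and Klf4 differ together. Each group has 2 cultures in batch 1 (replicates 1 and 2) and 2 in batch 2 (replicates 3 and 4). The replicates are called biological, but nothing says how the cultures were kept apart, so p-values measure the spread between these cultures. Library totals lay between 45417853 and 52731176 counts. Klf4 itself went from 40.1 ± 3.11 to 5040 ± 567 CPM (CPM, counts scaled to library size with TMM factors; SD, n = 4). The summed level of 9 β-cell markers was 25300 to 32100 CPM in control and 23600 to 32300 CPM in Klf4 libraries. Of the 9 genes 5 were lower past the threshold and none higher, where 15.5% of all tested genes were lower. The log2 fold changes of these 5 lay between -0.22 (Slc30a8) and -0.07 (Iapp). That of Mafa was -0.05 in batch 1 and -0.3 in batch 2, and edgeR's test of this difference gave an adjusted p = 0.00817. Ins1, Ins2, Nkx6-1 and Slc2a2 did not pass. RNA was measured in bulk, so a change in the share of cells that express a gene and a change per cell cannot be told apart.

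After a filter on low counts 84 members could be tested. Of these, 14 passed an adjusted p under 0.05, 10 higher and 4 lower with Klf4 (edgeR's quasi-likelihood test with a batch term, Benjamini-Hochberg adjustment over all 18266 tested genes). This is 16.7% of the tested members, where 36.6% of all tested genes passed. The higher calls compare with 21.1% of all genes and the lower calls with 15.5%. The largest rises were in Cdh5, which had no counts in any control library, and in Pcdh18. Both passed the filter only through their Klf4 libraries, so they could be tested only because they were higher there. Pcdh1 and Cdh23 rose by less than 1.5-fold from well-detected levels, and Cdh6 was the only tested numbered cadherin that fell past the threshold. Members differed from the whole table in depth: the median of their average log2 CPM was 1.69 against 3.88, and the median standard error of the log2 fold change 0.13 against 0.06. Among members whose average log2 CPM was 3 or more, 10 of 23 passed (43.5%), where 43.4% of all such genes did. Below that level 4 of 61 passed (6.56%), against 27.4% of all such genes. Of the members at 3 or more, 7 of 12 outside the clusters (58.3%) and 3 of 11 clustered ones (27.3%) passed. Below 3, these were 2 of 18 (11.1%) and 2 of 43 (4.65%). The 2 of 18 are Cdh5 and Pcdh18, so this share rests on genes that could be tested only because they were higher with Klf4. These divisions were chosen after the values had been seen.

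**Figure D1:**
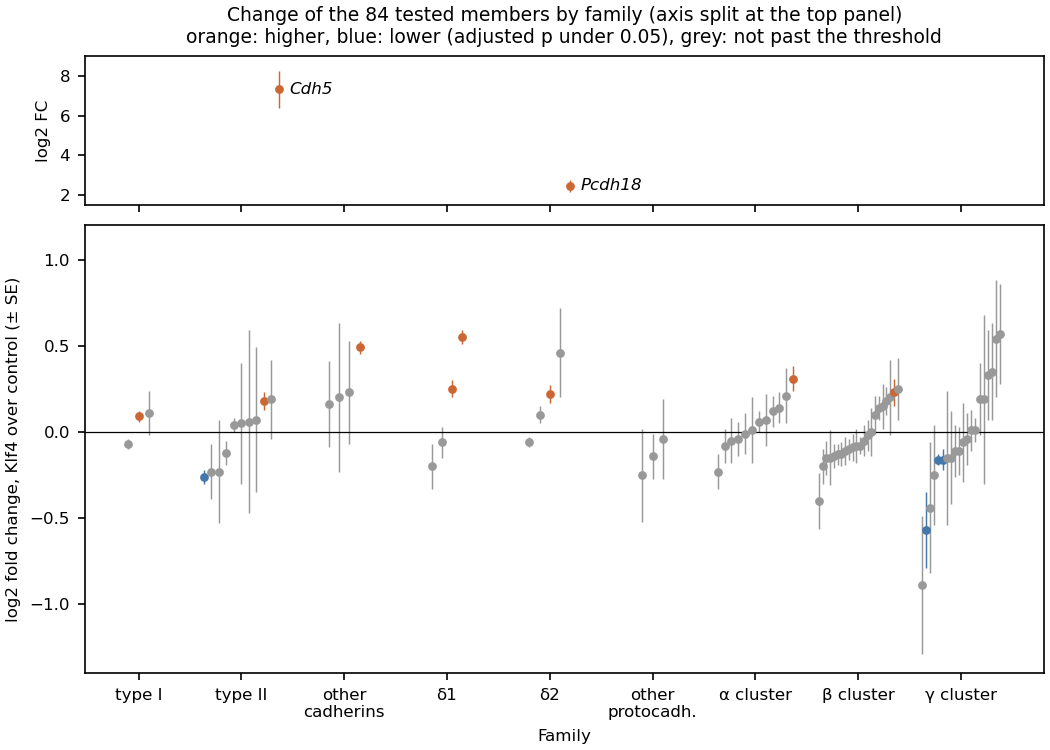
Log2 fold change (Klf4 over control) with its standard error for each of the 84 tested members, grouped by family on the horizontal axis. The vertical axis is split, with Cdh5 (7.31) and Pcdh18 (2.47) in the upper panel. Orange and blue points passed the threshold and grey points did not. Most points of the clustered families lie close to 0.

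The families did not share one direction. Among the 30 tested members outside the clusters, 9 passed (30%), 8 higher and 1 lower, with a median log2 fold change of 0.08. The 8 include Cdh5 and Pcdh18, which passed the filter only through their Klf4 libraries. Among the 54 tested clustered members, 5 passed (9.26%), 2 higher and 3 lower, with a median of -0.04. Over all tested genes 36.6% passed, 21.1% higher and 15.5% lower, and the median was -0.01. The groups did not overlap in 9 tested members (10.7%), against 26.1% of all tested genes.

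Promoter sequences are shown for the called members outside the protocadherin cluster's chromosome that changed most and have a RefSeq entry. Klf4 is known to bind CACCC-type elements. Cdh5 has no promoter shown. Each line gives the 250 bases before the start site, on the gene's strand (minus for all 3), with CACCC or its reverse complement GGGTG in capitals:
Pcdh18, chr3:49757317-49757566: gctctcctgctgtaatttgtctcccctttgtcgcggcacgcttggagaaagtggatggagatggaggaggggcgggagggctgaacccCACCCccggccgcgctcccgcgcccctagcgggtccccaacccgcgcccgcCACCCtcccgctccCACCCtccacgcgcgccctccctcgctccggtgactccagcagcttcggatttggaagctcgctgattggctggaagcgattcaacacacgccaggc
Cdh23, chr10:60696491-60696740: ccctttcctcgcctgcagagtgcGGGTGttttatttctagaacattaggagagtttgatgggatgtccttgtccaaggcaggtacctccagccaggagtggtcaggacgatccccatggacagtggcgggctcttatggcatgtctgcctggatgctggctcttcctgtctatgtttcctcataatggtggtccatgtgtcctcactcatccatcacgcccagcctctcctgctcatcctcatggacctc
Cdh6, chr15:13173676-13173925: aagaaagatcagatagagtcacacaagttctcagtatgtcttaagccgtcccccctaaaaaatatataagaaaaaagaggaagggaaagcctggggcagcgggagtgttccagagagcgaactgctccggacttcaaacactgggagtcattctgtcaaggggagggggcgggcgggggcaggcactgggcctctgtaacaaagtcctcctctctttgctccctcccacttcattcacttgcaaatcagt

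The sequences come from RefSeq on GRCm38.p6. Pcdh18 had 3 matches, whose first bases lie 162, 111 and 97 bases before the start. Cdh23 had 1 match at 227 bases before the start, and Cdh6 had none. A match was present in 52.0% of all 32851 promoters of this length and in 12 of the 25 promoters that could be matched to 22 member symbols (48.0%). Of the 6 promoters matched to called members, 2 had a match (33.3%), those of Pcdh18 and Cdh23. A match of these letters is a description of the sequence and not a binding site.

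Among type I cadherins, Cdh2 encodes N-cadherin, which joins β cells and neurons to their neighbours. Cdh2 (chromosome 18, 16588877 to 16809246, minus strand) had 186.7, 185.1, 188.7 and 185 CPM in control replicates 1 to 4 and 191.7, 197.2, 207.7 and 196.2 CPM in Klf4 replicates 1 to 4. Every Klf4 library lay above every control library, by little. Its log2 change was 0.09 (SE 0.03, edgeR adjusted p = 0.0162). This call was lost in 6 of the 8 fits that left out 1 library, namely any control library or Klf4 replicate 2 or 3, with log2 fold changes of 0.05 to 0.09 over the 8 fits. Cdh4, which encodes R-cadherin of the retina and brain, had 99.8, 102.4, 85.1 and 80.6 CPM in control and 98.9, 94.2, 79.8 and 78.6 CPM in Klf4 libraries. Its groups overlapped, and both were lower in batch 2 (log2 change -0.07, SE 0.03, edgeR adjusted p = 0.112). With the GC and length offset Cdh4 passed as lower (-0.09, edgeR adjusted p = 0.0258). Cdh3, which encodes P-cadherin of basal epithelium, had 2.2 to 4.09 CPM in control and 2.11 to 4.02 CPM in Klf4 libraries and did not pass. The muscle cadherin gene Cdh15 had 4, 3, 2 and 4 counts in control and 5, 5, 6 and 11 in Klf4 libraries and was not tested.

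For comparison, Cdh1, the E-cadherin gene that is no member here, had 165, 166, 111.4 and 115.3 CPM in control and 183.9, 186.9, 136.2 and 136.7 CPM in Klf4 libraries. Its groups overlapped between batches and not within them (log2 change 0.21, SE 0.03, edgeR adjusted p = 3.4e-06, and 0.16 and 0.27 in batches 1 and 2). Without the batch term Cdh1 did not pass (edgeR adjusted p = 0.381).

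Among type II cadherins, 3 of 11 tested genes passed, Cdh5 and Cdh24 higher and Cdh6 lower (27.3%, against 36.6% of all tested genes). Cdh5 (chromosome 8, 104101625 to 104144511, plus strand) encodes VE-cadherin, which joins endothelial cells. It had 0 counts in each control library and 14, 28, 19 and 19 counts in Klf4 replicates 1 to 4, or 0.271, 0.619, 0.361 and 0.36 CPM. Against a floor of 3 counts per control library the Klf4 mean, 0.403 ± 0.15 CPM over 4 libraries, was at least 6.49-fold higher. The fitted log2 value of 7.31 (SE 0.92, edgeR adjusted p = 2.43e-06) depends on the prior count that edgeR adds and is no measure of size. Klf4 replicate 2, the smallest library, held the most counts. Cdh5 passed the filter on low counts only through its Klf4 libraries. No exon of Cdh5 overlaps another annotated gene.

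Other endothelial markers were examined beside Cdh5. Of 6 listed genes, Kdr and Cldn5 had 0 counts in all control libraries and at most 2 counts in a Klf4 library. The endothelial gene Pecam1 had 180 to 202 counts in control and 186 to 240 in Klf4 libraries and did not pass (log2 fold change 0.13, edgeR adjusted p = 0.351). The receptor gene Tie1 rose from 0, 0, 3 and 2 counts to 69, 61, 47 and 66 (log2 fold change 5.41, edgeR adjusted p = 2.97e-09). Tek did not pass (log2 fold change 0.67, edgeR adjusted p = 0.199), and Emcn had at most 3 counts in a library. The summed level of the list was 4.1 to 4.48 CPM in control and 5.67 to 6.29 CPM in Klf4 libraries. Most of this difference was Tie1, with 0.0256 ± 0.0306 CPM in control and 1.21 ± 0.213 in Klf4 libraries (SD, n = 4). Of 3 tested markers 1 rose, where 21.1% of all tested genes did. This marker, Tie1, passed the filter on low counts only through its Klf4 libraries. The part of endothelial markers in the Cdh5 result was not tested.

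Cdh6 (chromosome 15, 13028701 to 13173675, minus strand) encodes K-cadherin, known from the developing kidney and nervous system. It had 72.4, 71.9, 71.1 and 67.6 CPM in control and 55.5, 64.3, 60.7 and 56.3 CPM in Klf4 libraries. All Klf4 libraries lay below all control libraries, at 0.837 times the control mean. On the log2 scale this was -0.26 (SE 0.04, edgeR adjusted p = 2.94e-05), -0.27 in batch 1 and -0.24 in batch 2. The call was kept in the 20 other fits and filters run for it, with log2 fold changes of -0.3 to -0.19, and was lost where a size of at least 1 on the log2 scale was also asked for.

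Cdh24 (chromosome 14, 54631231 to 54641364, minus strand), a type II cadherin, had 37.2, 35.5, 31.5 and 29 CPM in control and 39.3, 41.7, 32.7 and 37.4 CPM in Klf4 libraries. Both groups were lower in batch 2, and they overlapped across batches but not within a batch. On the log2 scale this was 0.18 (SE 0.05, edgeR adjusted p = 0.00418). It fell to 0.1 when GC content and exon length entered as an offset, which ended the call (edgeR adjusted p = 0.0751), and without the batch term the adjusted p was 0.18.

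The other type II genes did not pass. Cdh22, a brain cadherin with the second highest control level per kb of exon outside the clusters, had 66.5 to 69.9 CPM in control and 64.8 to 74.4 CPM in Klf4 libraries (log2 change 0.04, SE 0.04, edgeR adjusted p = 0.431). Cdh8, another brain cadherin, had 11.9 to 14.6 CPM in control and 11.2 to 12.7 CPM in Klf4 libraries (log2 fold change -0.12, SE 0.07). Cdh7, Cdh9, Cdh10, Cdh11, Cdh18 and Cdh19 had log2 fold changes of -0.23, 0.07, 0.05, -0.23, 0.19 and 0.06. Their standard errors lay between 0.16 for Cdh7 and 0.53 for Cdh19, so that a change the size of that in Cdh6 could not be resolved in them at this depth. Cdh12 and Cdh20 had at most 11 counts per library and were not tested. Cdh20 had 9, 11, 10 and 7 counts in control and 4, 5, 3 and 6 in Klf4 libraries, and its groups did not overlap.

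Of the remaining cadherins, Cdh23 (chromosome 10, 60302748 to 60696490, minus strand) passed. It encodes a long cadherin of the tip links of inner-ear hair cells. It had 30.7, 30.3, 28.8 and 27.2 CPM in control and 40, 42, 41 and 41.1 CPM in Klf4 libraries. The groups were far apart relative to their spread, with means of 29.3 ± 1.61 and 41 ± 0.826 CPM (SD, n = 4). The ratio of means was 1.4 and the log2 change 0.49 (SE 0.04, edgeR adjusted p = 3.08e-09, 0.43 and 0.55 in batches 1 and 2). Its partner in the tip link, Pcdh15, did not pass (log2 change -0.14, SE 0.13, edgeR adjusted p = 0.466). Cdh16, Cdh17 and Cdh26 had fewer than 50 counts in each library and log2 fold changes of 0.23, 0.16 and 0.2 that did not pass. Cdh13, which encodes a cadherin anchored by a lipid, had 1 to 5 counts and was not tested.

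**Figure D2:**
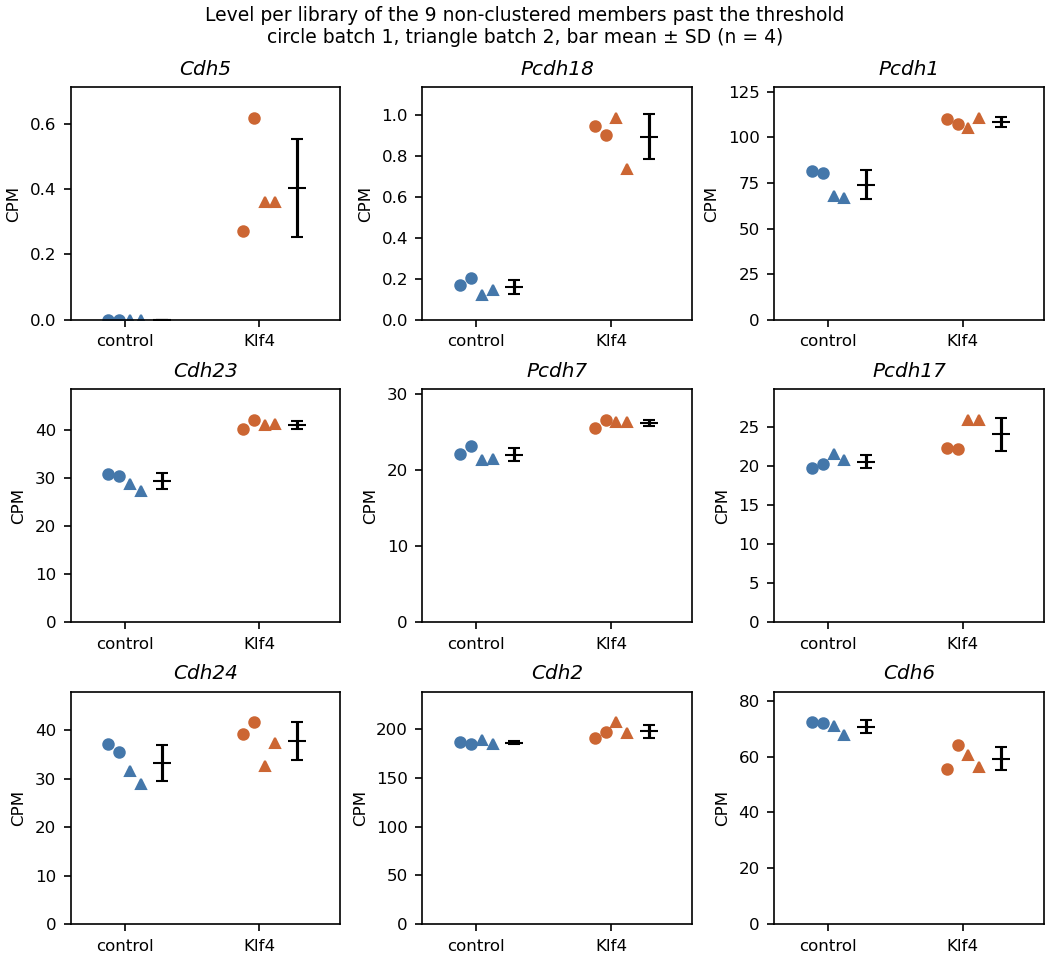
Level (CPM, TMM-scaled) in each library for the 9 called members outside the clusters, with circles for batch 1, triangles for batch 2 and a bar for the mean ± SD of 4 libraries. Each vertical axis starts at 0. Groups do not overlap in 8 panels, and Cdh24 is the panel in which they do; in Cdh6 the Klf4 libraries lie below the control libraries.

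Among non-clustered protocadherins, the δ1 genes Pcdh1 and Pcdh7 and the δ2 genes Pcdh17 and Pcdh18 rose, and none of the 12 fell past the threshold. This is 33.3% called, against 36.6% of all tested genes, and it counts Pcdh18, which passed the filter only through its Klf4 libraries. Pcdh1 (chromosome 18, 38185914 to 38212053, minus strand), expressed in airway epithelium and brain, had 81.5, 80.4, 67.7 and 66.8 CPM in control and 110.1, 107.2, 105.3 and 110.9 CPM in Klf4 libraries. Control libraries of batch 2 were lower than those of batch 1, while the Klf4 libraries were alike in both batches. On the log2 scale this was 0.55 (SE 0.04, edgeR adjusted p = 2.49e-10), a ratio of means of 1.46. Batch 1 gave 0.42 and batch 2 gave 0.68, and edgeR's test of this difference gave an adjusted p = 0.0308. Pcdh1 was the only member of 84 past the threshold there; 8 had an unadjusted interaction p under 0.05, and 0.766% of all tested genes passed.

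Pcdh18 (chromosome 3, 49743296 to 49757325, minus strand), whose promoter is printed above, is known from mesenchyme and the nervous system. It had 8, 10, 6 and 7 counts in control and 49, 41, 52 and 39 counts in Klf4 libraries, and passed the filter only through the latter. Every Klf4 library held several times the counts of any control library, 0.896 ± 0.109 against 0.161 ± 0.0358 CPM (SD, n = 4), a ratio of 5.58. On the log2 scale this was 2.47 (SE 0.31, edgeR adjusted p = 7.68e-07, 2.29 and 2.67 in batches 1 and 2). Even so its level with Klf4 was 0.167 ± 0.0204 CPM per kb of exon, below the 0.759 ± 0.0479 of Pcdh9. A list of 7 mesenchymal markers was examined beside it. The summed level of that list was 2.65 to 3.92 CPM in control and 21.1 to 27.5 CPM in Klf4 libraries. Of 4 tested markers 3 rose (Col1a1, Dcn and Pdgfra), where 21.1% of all tested genes did. Dcn and Pdgfra passed the filter on low counts only through their Klf4 libraries, and Col3a1, Pdgfrb and Lum were not tested. Most of the difference in the summed level was Dcn, with 0.0461 ± 0.0449 CPM in control and 17.6 ± 3.82 in Klf4 libraries. Col1a2 did not pass (log2 fold change 0.09, edgeR adjusted p = 0.734), and Lum had 0 counts in all 8 libraries. Their part in the Pcdh18 result was not tested.

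Pcdh7 (chromosome 5, 57717967 to 58133230, plus strand), of brain and heart, had 22.1, 23.1, 21.3 and 21.4 CPM in control and 25.6, 26.6, 26.3 and 26.3 CPM in Klf4 libraries. The groups did not overlap and the spread within each was small (log2 change 0.25, SE 0.05, edgeR adjusted p = 0.000141, 0.2 and 0.3 in batches 1 and 2). Of its exonic bases 78.9% are free of another gene, and reads from the overlapping 4932441J04Rik cannot be told apart without a stated strand setting. Pcdh17 (chromosome 14, 84443563 to 84539002, plus strand), of brain, had 19.8, 20.2, 21.6 and 20.8 CPM in control and 22.3, 22.2, 26 and 25.9 CPM in Klf4 libraries. The Klf4 libraries of batch 2 stood above those of batch 1 (log2 change 0.22, SE 0.05, edgeR adjusted p = 0.000746, 0.15 and 0.29 in batches 1 and 2). Batch 1 fitted alone did not give the call (edgeR adjusted p = 0.119).

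Pcdh10, a δ2 gene of the brain, had the highest mean CPM of all members in control libraries; with Klf4 its mean of 199 ± 13.6 CPM and that of Cdh2, 198.2 ± 6.78, did not differ beyond their spread. It had 220.6, 212.8, 198 and 196.1 CPM in control and 210.1, 210.8, 191.7 and 183.5 CPM in Klf4 libraries. The groups overlapped (log2 change -0.06, SE 0.03, edgeR adjusted p = 0.109), and the sign turned to 0.03 with the offset for GC content and length. It passed as lower without control replicate 2 (edgeR adjusted p = 0.0261) or without Klf4 replicate 3 (edgeR adjusted p = 0.0464). Pcdh19, a δ2 gene known for its role in an epilepsy of girls, had 34.3 to 44.4 CPM in control and 34.8 to 44.4 CPM in Klf4 libraries and did not pass (log2 fold change 0.1, SE 0.05). Pcdh8, Pcdh9, Pcdh11x, Pcdh12 and Pcdh20 did not pass either, with log2 fold changes of 0.46, -0.06, -0.2, -0.25 and -0.04.

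Compared per length, control levels of the 34 members outside the clusters ran from 0 for Cdh5 and 0.00504 CPM per kb for Cdh13 upwards. Cdh2 was highest at 23.1 ± 0.21 CPM per kb of exon (SD, n = 4), followed by Cdh22 at 18.2 ± 0.438, Pcdh10 at 13 ± 0.743 and Cdh4 at 12.7 ± 1.48. Pcdh10 and Cdh4 did not differ beyond their spread. Cdh24 (9.55 ± 1.07), Pcdh1 (8.43 ± 0.903) and Cdh6 (7.84 ± 0.243) followed, with overlapping spreads between neighbours. With Klf4, Pcdh1 reached 12.3 ± 0.294 CPM per kb, next to Pcdh10 (12.5 ± 0.857) and Cdh4 (12.1 ± 1.41), and Cdh6 came to 6.56 ± 0.453. Cdh5 with Klf4 came to 0.0958 ± 0.0357 CPM per kb. Since several of these genes are best known from brain, markers of neurons and glia were summed: 384 to 424 CPM in control and 380 to 432 CPM in Klf4 libraries, mostly Map2. Of 5 tested genes 2 were higher (Rbfox3 and Sox10), where 21.1% of all tested genes were. Sox10 passed the filter on low counts only through its Klf4 libraries.

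**Figure D3:**
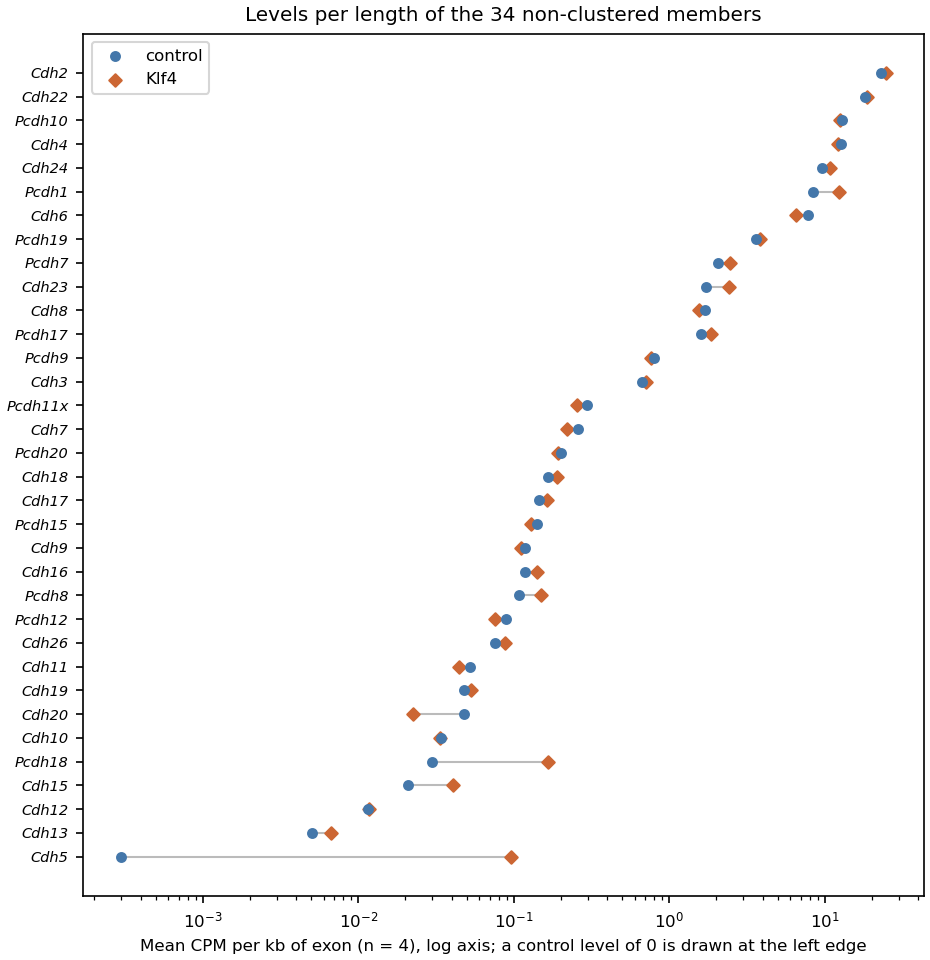
Mean level per kb of exon (CPM per kb, 4 libraries per group, log axis) of the 34 members outside the clusters, with blue circles for control and orange diamonds for Klf4. The pairs coincide for most genes; the widest gaps are those of Cdh5, whose control level of 0 is drawn at the left edge, and Pcdh18.

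The clustered protocadherins lie together on chromosome 18 between 36930184 and 37841873, in the order α, β, γ, on the plus strand. In the GENCODE M21 models every α and γ gene shares exonic bases with other genes, and the median share of bases not shared was 46.4% in the α and 54.7% in the γ family. In the β family, whose genes do not splice to common exons, 19 of 22 genes shared no exonic base. How reads in shared exons were counted is not stated. The 4 clustered genes with under 30% unshared bases (Pcdha4, Pcdhga10, Pcdhga11 and the Pcdha11 row ENSMUSG00000102206) had at most 29 counts in any library. Symbol Pcdha11 stands in 2 rows, and the other, ENSMUSG00000007440, starts close to where RefSeq places Pcdha10.

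Of the α family 1 of 12 tested genes passed (8.33%, against 36.6% of all tested genes). Pcdhac2, a C-type gene at the end of the α array, had 16.1, 17.8, 12 and 11.2 CPM in control and 18.2, 18.5, 17.2 and 15.9 CPM in Klf4 libraries. Control libraries of batch 2 were the lowest, and the groups overlapped across batches but not within a batch. This gave a log2 change of 0.31 (SE 0.07, edgeR adjusted p = 0.00165), 0.11 in batch 1 and 0.51 in batch 2, and batch 1 alone did not give the call (edgeR adjusted p = 0.351). The difference between batches did not pass the interaction test (edgeR adjusted p = 0.106). The 11 other tested α genes had log2 fold changes between -0.23 (Pcdha9, edgeR adjusted p = 0.0883) and 0.21.

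Of the β family 1 of 22 genes passed, all 22 being tested (4.55%, against 36.6% of all tested genes). Pcdhb5 had 7.71, 6.84, 7.32 and 5.84 CPM in control and 8.9, 8.7, 7.17 and 7.68 CPM in Klf4 libraries. The groups overlapped (log2 change 0.23, SE 0.08, edgeR adjusted p = 0.0398). The call was lost with the replicate number as a block (edgeR adjusted p = 0.0538) and in 6 of the 8 fits that left out 1 library. Of the 22 log2 fold changes 20 were under 0.25 in size. The β gene with the highest mean CPM, Pcdhb14, had 36.8 to 40.2 CPM in control and 32.3 to 40.3 CPM in Klf4 libraries (log2 fold change -0.08, SE 0.05). Per kb of exon its control level was 4.43 ± 0.163 CPM and that of Pcdhb20 4.82 ± 0.474 (SD, n = 4). These did not differ beyond their spread. Pcdhb15 had the lowest log2 fold change of the family, -0.4 (SE 0.16), and did not pass (edgeR adjusted p = 0.0584).

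Of the γ family 3 of 20 tested genes passed, all lower (15%, where 15.5% of all tested genes were lower). Pcdhgc3 is a C-type gene and took 62.6% of the summed γ level in control and 61.2% in Klf4 libraries. It had 75.7, 76.4, 95 and 87.7 CPM in control and 68.9, 71.2, 80.3 and 78.6 CPM in Klf4 libraries. Both groups were higher in batch 2, and within each batch the Klf4 libraries lay below the control libraries. This gave a log2 change of -0.16 (SE 0.03, edgeR adjusted p = 0.000648, -0.12 and -0.2 in batches 1 and 2). Its neighbour Pcdhgc4 had 20.1, 21.1, 21 and 19.5 CPM in control and 17.4, 16.6, 19.9 and 19 CPM in Klf4 libraries. The decrease was mostly in batch 1 (log2 change -0.16, SE 0.06, edgeR adjusted p = 0.0279, -0.28 and -0.05 in batches 1 and 2). It did not pass without control replicate 2, Klf4 replicate 1 or Klf4 replicate 2 (edgeR adjusted p of 0.06, 0.0686 and 0.0923).

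Pcdhga12 had 55, 104, 83 and 73 counts in control and 72, 33, 61 and 57 counts in Klf4 libraries. The groups overlapped, with the highest value in control replicate 2 and the lowest in Klf4 replicate 2. This gave a log2 change of -0.57 (SE 0.22, edgeR adjusted p = 0.0438). Without control replicate 2 it was -0.38 and without Klf4 replicate 2 it was -0.41, neither of which passed, nor did the fits without control replicate 3 or Klf4 replicate 3 or 4. With the replicate block the adjusted p was 0.0815. Pcdhgc5, the third C-type gene of the array, had a log2 fold change of 0.01 (SE 0.12). Among γ genes that did not pass, Pcdhga11 was the one clustered member whose groups did not overlap, on at most 29 counts (log2 change -0.89, SE 0.4, edgeR adjusted p = 0.0893). Not tested were Pcdha4 (1 to 8 counts), the second Pcdha11 row (6 to 20), Pcdhgb4 (2 to 9) and Pcdhga10 (0 to 5).

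None of the 14 called members had a log2 fold change of the other sign within either batch. Without the batch term 7 of the 14 calls were lost: Cdh2, Cdh24, Pcdhac2, Pcdhb5, Pcdhga12, Pcdhgc3 and Pcdhgc4.

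Summed levels differed by family. The δ1 sum was 105.6 ± 10.2 CPM in control and 143.3 ± 3.34 in Klf4 libraries (ratio 1.36), and that of the 5 cadherins of neither type, mostly Cdh23, was 30.6 ± 1.61 and 42.6 ± 0.87 (ratio 1.39; SD, n = 4). In both, every Klf4 library lay above every control library. The type I, type II and δ2 sums had ratios of 1.03, 0.968 and 0.997, and that of the other non-clustered protocadherins 0.914. The α sum was 63 ± 3.71 CPM in control and 67 ± 1.91 in Klf4 libraries, the β sum 172.2 ± 6.06 and 166.1 ± 13.9, and the γ sum 133.8 ± 7.05 and 122.2 ± 5.28 (SD, n = 4). These sums of members are descriptions without a test. For the γ family the Klf4 libraries had 116.7, 118.6, 127.1 and 126.2 CPM and the control libraries 126.5, 131.7, 143.3 and 133.7, so that the groups overlapped across batches. By library, the δ1 sum was 114, 115, 96.8 and 96.8 CPM in control and 145.4, 143.3, 138.6 and 145.8 CPM in Klf4 libraries. Pcdh1 was its most abundant gene and made up most of the difference. Pcdh7 also rose, while Pcdh9 and Pcdh11x, with log2 fold changes of -0.06 and -0.2, did not pass. All 92 members together held 1247 ± 47 CPM in control and 1284 ± 37.6 CPM in Klf4 libraries.

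**Figure D4:**
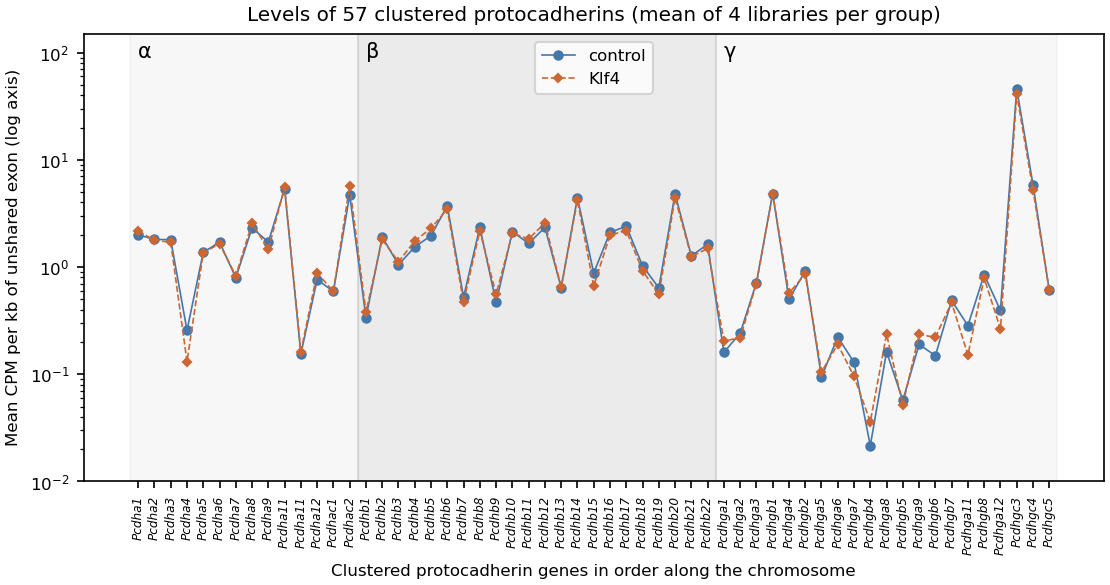
Mean level per kb of unshared exon (CPM per kb, 4 libraries per group, log axis) of 57 clustered protocadherins in their order along the chromosome; Pcdhga10 has no unshared base and is left out. Control (blue, solid) and Klf4 (orange, dashed) trace nearly the same profile, with Pcdhgc3 the highest in both.

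Levels also differed between batches of the labels. The batch term of the same fit, read out after the counts had been seen, passed for 16 members, 14 lower and 2 higher in batch 2 (19% of those tested; 25.1% of all tested genes). Lower in batch 2 were 11.6% of all tested genes and higher 13.4%. The cadherins Cdh3, Cdh4, Cdh10 and Cdh24 were lower in batch 2, with log2 differences of -0.68, -0.29, -1.61 and -0.24. So were Pcdh1, Pcdh10, Pcdh11x and Pcdh19, with -0.13, -0.15, -0.69 and -0.23. In the clusters Pcdhac2, Pcdhb1, Pcdhb10, Pcdhb11, Pcdhb20 and Pcdhgb1 were lower, by -0.28 for Pcdhb20 to -0.78 for Pcdhb1, and Pcdhgc3 was higher by 0.22. Cdh10 had 32 and 21 counts in the batch 1 control libraries and 8 and 5 in those of batch 2. Pcdhb11 had 8.8 and 8.36 CPM in control and 9.6 and 9.04 CPM in Klf4 libraries of batch 1, and 6.37 and 5.86 CPM in control and 7.04 and 6.6 CPM in Klf4 libraries of batch 2.

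**Figure D5:**
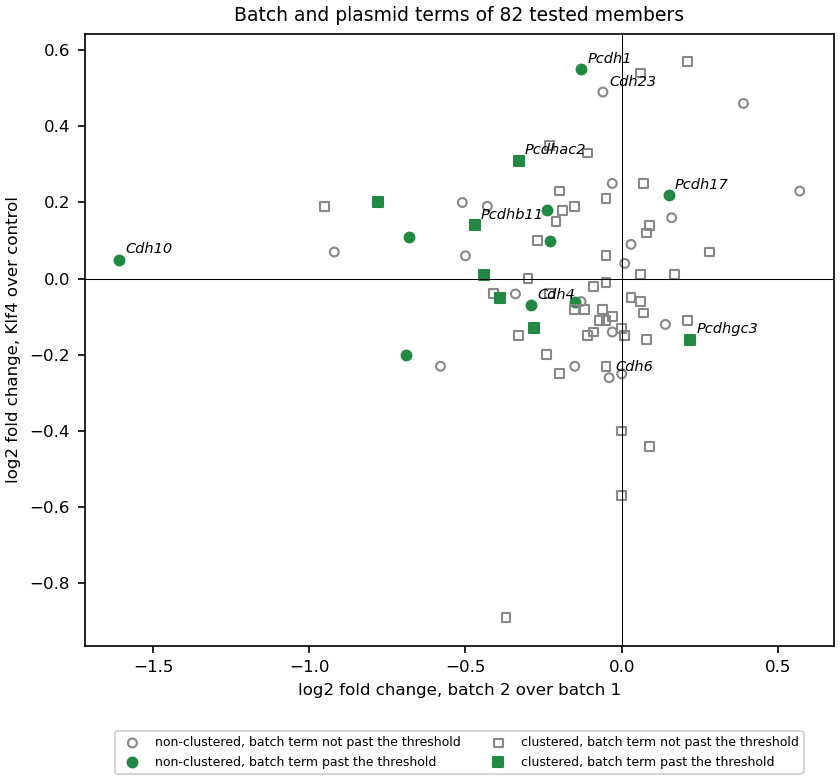
Log2 fold change of Klf4 over control (vertical) against batch 2 over batch 1 (horizontal) for 82 tested members, leaving out Cdh5 and Pcdh18, which lie above the frame. Green symbols passed the threshold for the batch term, and squares are clustered genes. Green symbols lie mostly left of 0, and Pcdh17 and Pcdhgc3 are the 2 on the right.

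The proteins that work with cadherins were described from lists chosen for their roles, with earlier results of these data known. The called shares of these lists are descriptions and no test of the lists. Over all tested genes 36.6% passed, 21.1% higher and 15.5% lower, and 43.4% of those with an average log2 CPM of 3 or more. Of 9 tested catenin genes, 5 rose and 1 fell (66.7% called), with a median log2 fold change of 0.17. The plakoglobin gene Jup, whose protein binds cadherin tails in place of β-catenin, had 225, 228.3, 235.2 and 226.2 CPM in control and 274.4, 276.9, 291.8 and 313.7 CPM in Klf4 libraries (log2 change 0.34, SE 0.03, edgeR adjusted p = 4.94e-09). Arvcf of the p120 family (0.47, SE 0.04) and the α-catenin relative Ctnnal1 (0.57, SE 0.05) rose as well. The β-catenin gene Ctnnb1 did not pass (log2 change 0.05, SE 0.02, edgeR adjusted p = 0.147), though it did with factors from highly expressed genes (adjusted p = 0.0164) and with the GC and length offset (adjusted p = 0.0306).

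Of 13 junction linker and nectin genes, all tested, 9 rose and 1 fell, with a median log2 fold change of 0.15. This is 76.9% called, against 36.6% of all tested genes and 43.4% of those with an average log2 CPM of 3 or more. The median average log2 CPM of this list was 6.76. Nectin4 and Nectin2, which encode adhesion proteins that start contacts beside cadherins, rose with log2 fold changes of 0.88 (SE 0.07) and 0.42 (SE 0.04). Pdlim1, whose protein binds α-actinin, had 0.036 ± 0.035 CPM in control and 1.21 ± 0.5 in Klf4 libraries (log2 fold change 4.94, SE 0.45). Pdlim1 passed the filter on low counts only through its Klf4 libraries. Of 8 processing and turnover genes 2 rose (25% called, below the share of all tested genes), the protease gene Pcsk6 (0.97, SE 0.19) and the recycling gene Rab11a (0.15, SE 0.04), with a median of 0.07.

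Of the 16 tested genes of the wider cadherin superfamily, 10 rose and 2 fell, with a median log2 fold change of 0.15. This is 75% called, against 36.6% of all tested genes and 43.4% of those with an average log2 CPM of 3 or more. Dchs1, a large cadherin that binds Fat4, had 0.398 ± 0.128 CPM in control and 2.48 ± 0.405 in Klf4 libraries (log2 fold change 2.63, SE 0.22). Fat2 went from 0.0628 ± 0.0671 to 0.397 ± 0.081 CPM (log2 fold change 2.66, SE 0.54), with 1.68 in batch 1 and 5.04 in batch 2 on few counts. Fat2 passed the filter on low counts only through its Klf4 libraries. Cdhr2, a protocadherin-like gene of intestinal brush borders, had 31.9 ± 4.84 CPM in control and 65.9 ± 3.1 in Klf4 libraries (log2 fold change 1.06, SE 0.06). The median average log2 CPM was 6.83 for catenins and 5.55 for the superfamily, against 1.69 for the members.

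Of 15 listed regulators of the clustered promoters, all tested, 1 rose and 7 fell. This is 53.3% called, where 43.4% of all genes with an average log2 CPM of 3 or more passed, and 15.5% of all tested genes were lower. All 15 changed by less than 0.25 on the log2 scale. Setdb1, which encodes a histone methyltransferase that represses the cluster, had 77.2, 79.5, 83.5 and 78.9 CPM in control and 67.9, 69.7, 70 and 69.5 CPM in Klf4 libraries (log2 change -0.2, SE 0.03, edgeR adjusted p = 2.36e-05). The cohesin loader gene Nipbl fell (-0.13, SE 0.04) and the DNA methyltransferase gene Dnmt3b rose (0.23, SE 0.08). Ctcf, whose protein brings the cluster's promoters to their enhancers, did not pass (log2 change 0.01, SE 0.03, edgeR adjusted p = 0.803). Of 12 genes for cytoplasmic partners of protocadherins, all tested, 5 rose and 1 fell (50% called), with a median of 0.02. Examples are Abi1 of the WAVE complex (0.36, SE 0.03) and the kinase genes Fyn (0.29, SE 0.03) and Ptk2b (0.58, SE 0.11). Each gene named as risen or fallen in these lists had an edgeR adjusted p under 0.05 over all tested genes.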

How the data were processed

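Polyadenylated RNA of 8 MIN6 cultures was sequenced from Tecan Universal Plus mRNA-seq libraries, per the labels. The authors deposited raw read counts per gene, 1 column per library. The submitters' processing notes list FastQC, STAR, featureCounts, edgeR and the mm10 build. Versions, strand setting and the handling of reads in shared exons are not given in the sources used here. All 55536 identifiers and symbols matched GENCODE M21 (GRCm38), which gave positions, exonic lengths and overlaps. The members and lists were chosen with earlier results of these data known. Named in full were the 12 largest changes among called members with at least 20 counts in 1 library, the 5 members of highest CPM, and all called lower members; of other lists the 3 largest changes were named, with Cdh1, Ctnnb1 and Klf4.

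Counts were fitted in edgeR 4.0.16 (R 4.3.3; limma 3.58.1 and DESeq2 1.42.0 for alternatives) with filterByExpr (minimum count 10), TMM factors of 0.9963 to 1.005, and terms for batch and plasmid. CPM per library are the deposited counts over TMM-scaled library sizes. No library repeated another: within groups, chi-square over its degrees of freedom was 4.23 to 23.3 for every pair, and all 8 were kept. Same-numbered libraries share a batch, and their deviations from the group means correlated at 0.46 to 0.61 over 10485 genes, as did other libraries of the same batch (0.46 to 0.57). Of the members, 8 fell below the filter. Alternatives were other scaling factors, filters, thresholds and tests, no batch term, the replicate number as a block, a GC and length offset, each library left out in turn, and, added after the data had been seen, each batch alone.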

Additional observations from a re-analysis of the deposited data

Results flagged for a closer look

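Batches 1 and 2 gave unequal Klf4 effects for Pcdh1, apart by 0.26 on the log2 scale (0.42 in batch 1, 0.68 in batch 2, edgeR interaction test, adjusted p = 0.0308), and for the superfamily gene Cdhr2, by 0.41 (0.85 and 1.27, adjusted p = 0.00471). Celsr1, a superfamily gene named after its values were seen, also differed, by 0.31 (0.25 and 0.56, adjusted p = 0.0264). The β-cell marker Mafa, likewise named after its values were seen, differed by -0.25 (-0.05 and -0.3, edgeR interaction test, adjusted p = 0.00817). Klf4 itself also rose more in batch 2, by 0.37 (adjusted p = 0.0057). Its part in these differences was not tested.

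A library far from the other 3 of its group was looked for 90 times and found 3 times, where chance gives about 4.5. Klf4 replicate 3 had 43.6 CPM of Arvcf against 42.4 to 42.6 in the others, and 147.9 CPM of Nipbl against 128.7 to 131. Klf4 replicate 4 had 7.74 CPM of Dnmt3b against 6.92 to 6.97. No library stood apart in this way for any of the members named in full.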

How the results depend on the processing

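The counts of 10 higher and 4 lower members became 6 and 1 without a batch term, and 2 and 0 where a log2 fold change of at least 1 was also asked for. The lower count was 2 with scaling factors taken from highly expressed genes (average log2 CPM 6 or more), and 2 at an adjusted p under 0.01. Batch 1 alone, chosen after the data had been seen, gave 5 higher. With the replicate block in place of batch the counts were 9 and 3, the calls of Pcdhb5 and Pcdhga12 being lost. Block and GC and length offset together gave 10 and 4, with Cdh24 and Pcdhga12 lost and Cdh4 and Pcdh19 gained. The offset alone gave 11 and 5, with Cdh24 lost and Cdh4, Pcdh19 and Pcdhb4 gained. Leaving out 1 library at a time gave 8 to 9 higher and 3 to 5 lower, and 10 of the 14 calls were kept in each of the 8 fits; the others are Cdh2, Pcdhb5, Pcdhga12 and Pcdhgc4. Pcdh10 turned from -0.06 to 0.03 with the offset, with and without the block. DESeq2 size factors, the DESeq2 Wald test, limma-voom and both other filters kept both counts within 1.5 times, and the filter at 1 CPM took Cdh5 and Pcdh18 out of the test. Scaled to total counts alone, the family sums moved by less than 1 SD. Under an average log2 CPM of 3, 6.56% of members and 27.4% of all genes were called; the cause was not tested.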
